A study of Mus musculus with 12 samples.

Results

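The receptors for BAFF and TNF studied here are 10 genes listed by name from the TNF receptor family (Tnfrsf13b, Tnfrsf13c, Tnfrsf17, Cd40, Cd27, Fas, Tnfrsf1a, Tnfrsf1b, Tnfrsf14 and Tnfrsf26), out of 43629 genes in the deposited count table, and all 10 were found in it. The list sets no threshold on a measured value. RNA was sequenced from B cells sorted from mouse spleen, in 3 groups of 4 libraries. Marginal zone (MZ) B cells deficient in Zfp36l1 carried the genotype Zfp36l1fl/flERT2cre/+ (replicates 1, 2, 7 and 8), and control MZ B cells were ERT2cre/ERT2cre (replicates 3, 4, 5 and 6). Follicular (FO) B cells were Zfp36l1fl/fl cre- (replicates 3, 4, 7 and 8). The strain label is Zfp36l1tm1.1Tnr in every group, so deficient MZ cells carry the floxed gene with 1 ERT2cre copy, while control MZ cells carry ERT2cre on both alleles. The sources used here do not give the age of the mice, the promoter that drives the recombinase or any inducing treatment. MZ and FO libraries also differ in genotype, in library kit and in read layout, so in every comparison with FO cells these and the cell type cannot be told apart.

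TNF family receptors are membrane proteins that bind trimeric ligands and recruit TRAF adaptors or death domain proteins inside the cell. BAFF, a cytokine that keeps mature B cells alive, binds the BAFF receptor (encoded by Tnfrsf13c), TACI (Tnfrsf13b) and BCMA (Tnfrsf17), and signals through TRAF3 and NF-kappaB-inducing kinase to the noncanonical NF-kappaB subunits. MZ B cells sit at the border of the splenic follicle and answer blood-borne antigens, and TACI is known to be abundant on them. Zfp36l1 is an RNA-binding protein that binds AU-rich elements in 3′ untranslated regions (UTRs) and speeds the decay of the mRNAs that carry them.

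Because the Zfp36l1 protein binds AU-rich sequence, the 3′ UTRs of the receptor mRNAs were searched for AU-rich motifs on the mRNA strand. The motifs were the heptamer TATTTAT and its core pentamer ATTTA, with the pentamer inside a heptamer counted in both. All 10 genes had an annotated 3′ UTR. Cd40 was the only receptor with the heptamer, which it held once in a UTR of 2035 bases, and it held 7 pentamers. Among genes tested between deficient and control cells that have an annotated 3′ UTR, 29.3% hold the heptamer and 69.3% the pentamer, in UTRs with a median of 1150 bases. Tnfrsf26 held 3 pentamers, Tnfrsf13b, Tnfrsf13c and Tnfrsf1b 2 each, and Tnfrsf17, Cd27, Fas, Tnfrsf1a and Tnfrsf14 none. The sites of Cd40 and of the most highly expressed BAFF receptors are shown 5′ to 3′ with the motif in capitals, as DNA letters from the longest annotated 3′ UTR (GENCODE M21, build GRCm38). A match describes the letters and is not a binding site, and neither Cd40 nor any other receptor was called changed in deficient cells.
Cd40 heptamer, chr2:165071258-165071280, plus strand: tctgtaatTATTTATacaatgac
Tnfrsf13b first pentamer, chr11:61147658-61147678, plus strand: aaaagacaATTTAgaggatgg
Tnfrsf13b other pentamer, chr11:61147965-61147985, plus strand: tatttgtgATTTAagtaactt
Tnfrsf13c first pentamer, chr15:82222841-82222861, minus strand: ggttgcatATTTAatctctgt
Tnfrsf13c other pentamer, chr15:82221872-82221892, minus strand: gtaaagctATTTAgccttagg

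Library depth was 28938453 to 40664963 counts. Zfp36l1 stood at 21.9 to 37.4 CPM in deficient MZ libraries, 109 to 125 in control MZ libraries and 355 to 396 in FO libraries (CPM, counts scaled to library size with TMM factors over the 12 libraries). Its fall in deficient cells was a log2 change of −1.98 (SE 0.12; edgeR, adjusted p = 4.18e-07), although 55.9% of its exon bases lie under exons of the other strand. All 7 B cell markers were above 1 CPM in each group. T cell markers summed to 39 to 50.8 CPM in control MZ, 40.6 to 47.2 in deficient MZ and 40.3 to 50.6 in FO libraries. Most of that sum was Lck (group means 41.4, 39.5 and 41.1 CPM); Cd3e, Cd4 and Thy1 had no count in control MZ cells, and Thy1 none in deficient MZ cells. Of the 4 T cell markers tested, 2 were called higher in deficient than in control MZ cells (2.3% of all tested genes were). Tcf7, among these 2, passed the filter on low counts only through the deficient libraries (146 counts in all, against 29 in control). Its call therefore adds no support. Lck (log2 change −0.08, adjusted p = 0.684) and Lat (−0.48, adjusted p = 0.246) were not called. Cd8a stood at 0.638 to 3.16 against 0.337 to 0.589 CPM (log2 change 2.04, SE 0.42; adjusted p = 0.0147), and Tcf7 at 0.333 to 1.84 against 0.049 to 0.254 CPM (2.46, SE 0.53; adjusted p = 0.0185, and 0.0504 to 0.0567 without control replicate 3 or 4 or deficient replicate 8). Of 7 macrophage and monocyte markers tested (summed level 26.4 to 34.3 CPM in deficient and 25 to 30.2 in control libraries), only Adgre1 was called, higher in deficient cells at 4.08 to 5.48 against 0.69 to 2.27 CPM (1.37, SE 0.28; adjusted p = 0.0136). Of 7 erythroid and platelet markers tested (12.8 to 33.8 and 11 to 26 CPM), only the globin gene Hbb-bt was called, with overlapping libraries at 1.56 to 3.88 against 0.49 to 1.69 CPM (1.44, SE 0.37; adjusted p = 0.0464), and its call was lost without any 1 library but control replicate 5 (0.0512 to 0.134) and with all 12 libraries in 1 fit (0.0621). Of 5 dendritic cell markers tested (11.5 to 17.6 CPM in deficient and 10.1 to 14.7 in control libraries), 0 were called. Xcr1 stood at 2.42 to 2.89 CPM in deficient against 1.52 to 1.95 in control libraries (adjusted p = 0.108). Siglech and Zbtb46 had lower estimates in deficient cells. Clec9a, not tested, had 70 counts in all in deficient and 5 in control cells. Germinal centre markers summed to 34.2 to 40.1 CPM in control MZ, 30.6 to 34.3 in deficient MZ and 198 to 212 in FO libraries. NK cell markers summed to 17.7 to 23.7, 20.1 to 27 and 2.78 to 3.69 CPM in the same order, with Ncr1 and Gzma at 0 in both MZ groups. Most of this difference was Prf1 (20.5, 22.2 and 2.47 CPM); of the 3 NK cell markers tested between control MZ and FO cells, Klrd1 (adjusted p = 0.116) and Klrb1c (adjusted p = 0.7) were not called. The part of these markers in any difference between the groups was not tested. The labels describe both sorted populations as CD93 positive, whereas Cd93 stood at 0.677 ± 0.279 CPM in control MZ, 0.712 ± 0.641 in deficient MZ and 19.7 ± 2.48 in FO libraries (SD, n = 4).

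The receptors differed widely in abundance, and levels of different genes are compared as CPM per kb of exon. In control MZ cells, Tnfrsf13c (173 ± 14.5 CPM per kb, SD, n = 4) and Tnfrsf13b (157 ± 11.2) were the most abundant, and their libraries overlapped. Cd40 followed at 65.3 ± 3.11 and Tnfrsf1b at 16.8 ± 2.67, each clear of its neighbours. Tnfrsf26 at 5.67 ± 0.627 and Fas at 4.82 ± 0.748 overlapped, and Tnfrsf14 (3.1 ± 0.557) and Cd27 (1.49 ± 0.125) came below them. Tnfrsf1a stood at 0.0411 ± 0.0394 and Tnfrsf17 at 0.0222 ± 0.0443. In FO cells the order began with Tnfrsf13c (203 ± 11.7), Tnfrsf13b (117 ± 6.14) and Cd40 (52.5 ± 2.79), and Tnfrsf14 came next at 22.3 ± 2.05, above Tnfrsf1b at 10.9 ± 1.49.

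**Figure D1:**
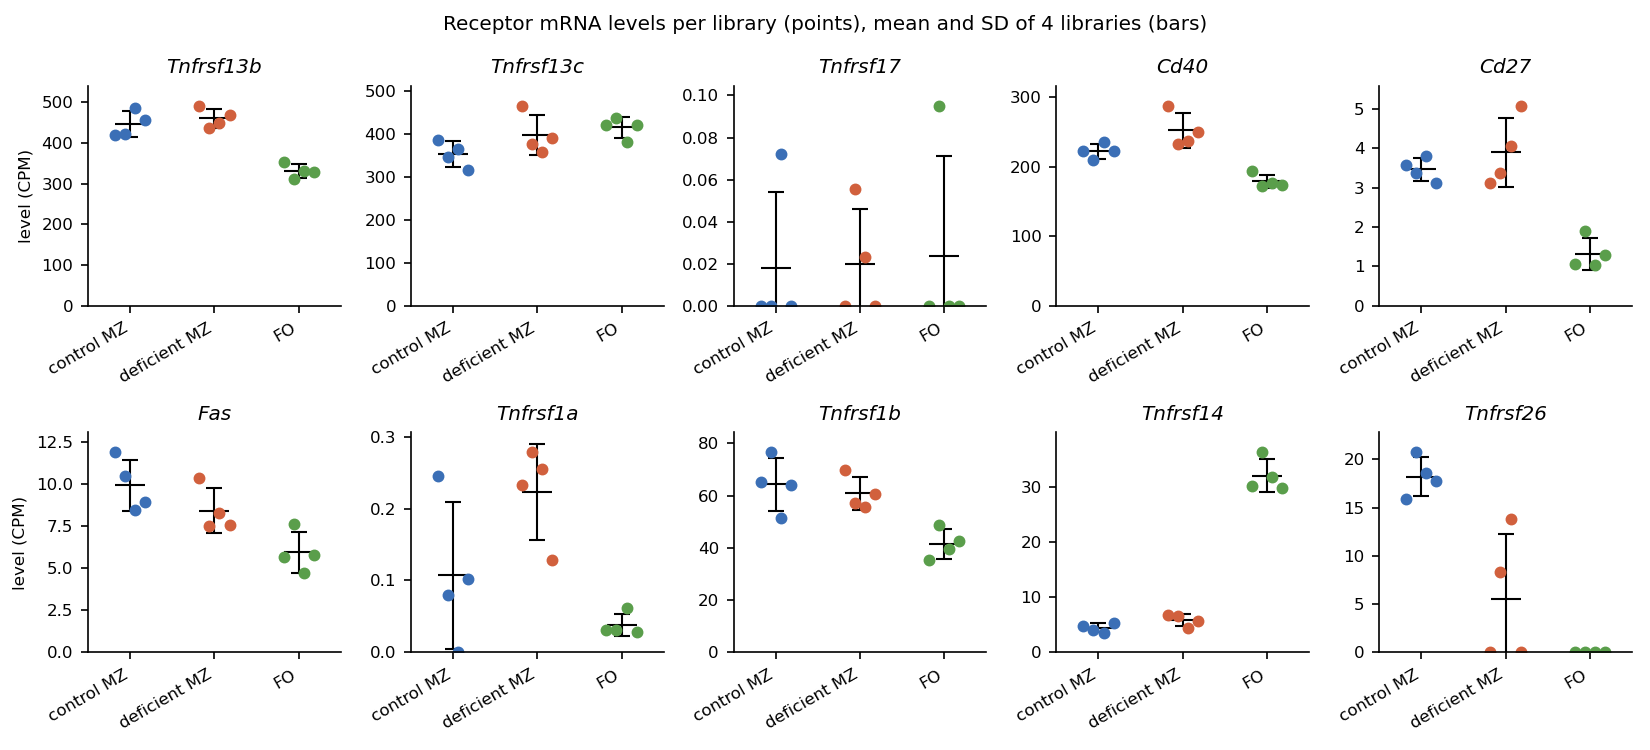
Level of each receptor mRNA (vertical axis, CPM, each panel with its own scale starting at 0) in every library of the 3 groups, with the mean and SD of 4 libraries as bars. All MZ points lie above all FO points for Tnfrsf13b, Cd40, Cd27 and Tnfrsf1b, all FO points of Tnfrsf14 lie above its MZ points (29.9 to 36.3 CPM), and Tnfrsf26 is spread from 0 to 13.8 CPM among the deficient MZ libraries.

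The first comparison asked whether the receptors differ between Zfp36l1-deficient and control MZ cells. These groups differ in the floxed gene and in ERT2cre copies together, so the part of each cannot be told apart. No receptor was called: 0 of the 8 tested had an adjusted p under 0.05 (edgeR's quasi-likelihood test over 13987 genes), where 3.76% of all tested genes were called (2.3% higher and 1.46% lower). Only 1, Cd40, had an unadjusted p under 0.05 (19.2% of all genes did), DESeq2 called 0 of 8 (7.86% of all genes) and the authors' deposited table also has 0 of 8 (7.64%). The median log2 change of the 8 was 0.102, beside −0.0037 over all tested genes. Tnfrsf17 and Tnfrsf1a did not pass the filter on low counts. P-values here measure the spread between libraries, since the labels do not say whether replicates are separate animals.

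**Figure D2:**
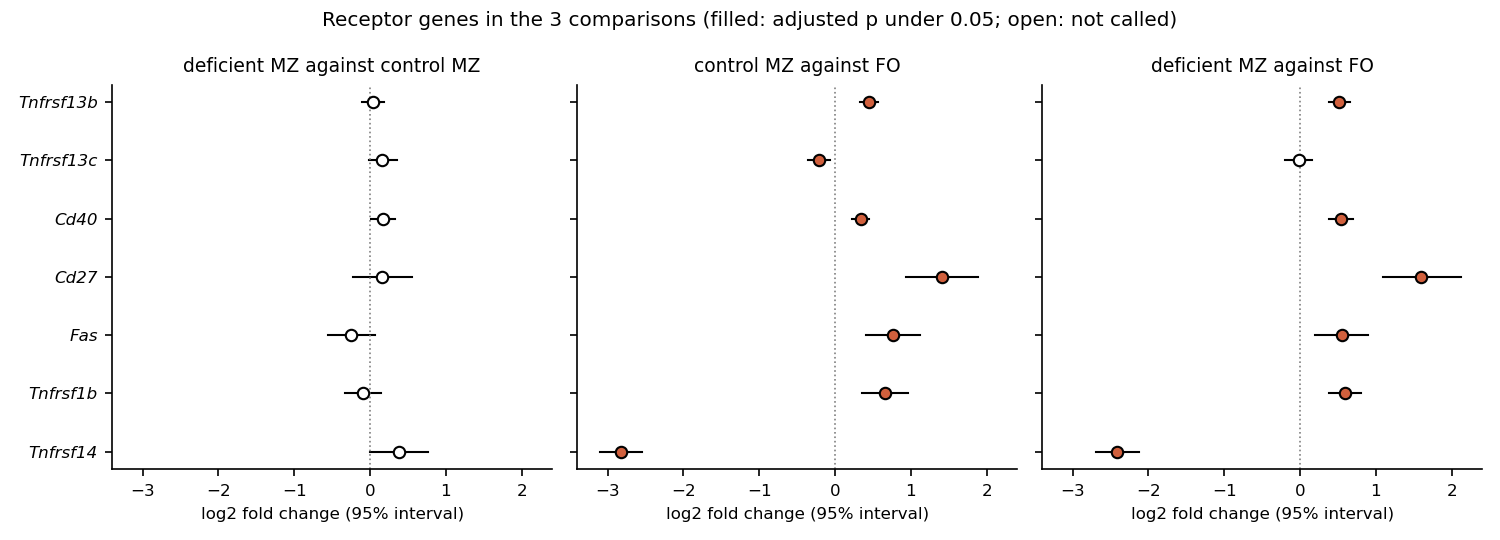
Log2 fold change with its 95% interval (horizontal axis) for 7 receptors in the 3 comparisons, from edgeR; filled points have an adjusted p under 0.05 and open points do not. Intervals in the first panel lie within −0.56 and 0.77, and Tnfrsf14 lies furthest to the left in both comparisons with FO. Tnfrsf26 is left out of every panel. Its FO libraries are all at 0, and between deficient and control cells its change was −1.69 (95% interval −4.5 to 1.11), outside the range above.

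Among the BAFF receptors, Tnfrsf13b encodes TACI, which also binds APRIL (chromosome 11, 61126755 to 61149372, plus strand, GRCm38). Tnfrsf13b stood at 419, 421, 486 and 457 CPM in control MZ replicates 3, 4, 5 and 6, at 491, 437, 449 and 468 in deficient replicates 1, 2, 7 and 8, and at 353, 311, 332 and 330 in FO replicates 3, 4, 7 and 8. Every MZ library was above every FO library, and the MZ groups overlapped. Deficient and control cells differed by a log2 change of 0.04 (95% interval −0.1 to 0.19; adjusted p = 0.78). Control MZ exceeded FO cells by 0.45 (SE 0.06; adjusted p = 7e-06) and deficient MZ exceeded FO cells by 0.52 (SE 0.06; adjusted p = 5.41e-06), in a background where 81.3% and 81.1% of all tested genes were called. With so many genes called, a call against FO sets no receptor apart.

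Tnfrsf13c encodes the BAFF receptor, the main survival receptor of mature B cells (chromosome 15, 82221743 to 82224369, minus strand). Its levels were 387, 346, 365 and 317 CPM in control MZ replicates 3 to 6, 466, 378, 358 and 391 in deficient replicates 1, 2, 7 and 8, and 421, 439, 382 and 422 in FO replicates 3, 4, 7 and 8. All 3 groups overlapped, and deficient replicate 1 was the highest of the 12 libraries. Control MZ cells were lower than FO cells by a log2 change of −0.21 (SE 0.07; adjusted p = 0.0118), while an exact permutation test of the mean levels gave a two-sided p of 0.0571 (smallest possible with 4 against 4: 0.0286). Deficient MZ and FO cells differed by −0.02 (95% interval −0.2 to 0.16; adjusted p = 0.833). Deficient and control MZ cells differed by 0.16 (95% interval −0.02 to 0.35; adjusted p = 0.331).

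Since the BAFF receptor and TACI share a ligand, their mRNAs were also compared within each library, which does not depend on scaling between libraries. The ratio of Tnfrsf13b to Tnfrsf13c, in CPM per kb, was 0.783, 0.878, 0.961 and 1.04 in control MZ replicates 3 to 6. It was 0.76, 0.835, 0.906 and 0.865 in deficient replicates 1, 2, 7 and 8, and 0.606, 0.511, 0.627 and 0.565 in FO replicates 3, 4, 7 and 8. Every MZ library had a higher ratio than every FO library (0.916 ± 0.111 and 0.842 ± 0.0615 against 0.577 ± 0.0509, SD, n = 4; exact permutation p = 0.0286 for each MZ group, the smallest possible). Deficient and control MZ cells overlapped (exact permutation p = 0.314). The ratio of Cd40 to Tnfrsf13c was also higher in MZ than in FO cells, at 0.38 ± 0.0336 in control MZ, 0.381 ± 0.0133 in deficient MZ and 0.259 ± 0.0211 in FO libraries (exact permutation p = 0.0286 for each MZ group against FO, 0.886 between MZ groups). The ratios were chosen after the levels were seen, and both have Tnfrsf13c as the denominator. Over these 6 exact tests, the Benjamini-Hochberg adjusted p was 0.0429 for every comparison with FO, which does not account for that choice. Kit and read layout differ along with the cell type in these ratios too.

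**Figure D3:**
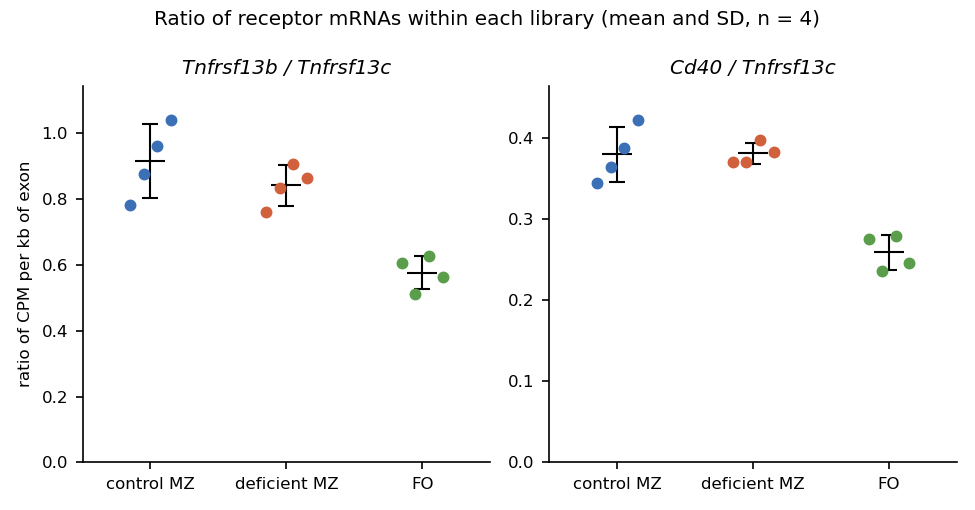
Ratio of Tnfrsf13b to Tnfrsf13c (left) and of Cd40 to Tnfrsf13c (right) within each library, as CPM per kb of exon, with the mean and SD of 4 libraries as bars and the vertical axis starting at 0. In both panels all 8 MZ points lie above the 4 FO points, and the MZ groups overlap.

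Tnfrsf17 encodes BCMA, the receptor that supports long-lived plasma cells (chromosome 16, 11313812 to 11320074, plus strand). Its counts summed to 3 in each group over 4 libraries, and 8 of 12 libraries had none, so no difference was detectable at this depth. Against FO cells, 4 of the 8 plasma cell markers were called higher in control MZ cells and 4 lower (42.6% and 38.7% of all tested genes). Those higher were Prdm1 (log2 change 2.69, SE 0.17, adjusted p = 5.37e-09), Xbp1 (1.13, SE 0.08, adjusted p = 1.84e-08), Derl3 (1.73, SE 0.24, adjusted p = 2.11e-05) and Ell2 (0.44, SE 0.07, adjusted p = 5.16e-05). Those lower were Slc3a2, Irf4, Sdc1 and Jchain. Sdc1, which encodes the plasma cell surface protein CD138, was lower at 0.127 to 1.61 against 9.18 to 11.4 CPM (log2 change −3.67, SE 0.43; adjusted p = 2.34e-05), and so was Jchain, which encodes the joining chain of secreted antibodies, at 0.478 to 1.59 against 3.01 to 10.7 CPM (−2.27, SE 0.47; adjusted p = 0.00126).

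Cd40 is the receptor for CD40 ligand on helper T cells (chromosome 2, 165055627 to 165072948, plus strand). It stood at 222, 210, 236 and 222 CPM in control MZ replicates 3 to 6, at 287, 233, 237 and 249 in deficient replicates 1, 2, 7 and 8, and at 193, 172, 177 and 173 in FO replicates 3, 4, 7 and 8. The MZ groups overlapped between 233 and 236 CPM, and no MZ library fell as low as an FO library. The log2 difference between deficient and control cells was 0.17 (SE 0.07, 95% interval 0.01 to 0.33; unadjusted p = 0.0355, adjusted p = 0.224). Against FO cells the log2 change was 0.34 in control MZ (SE 0.05; adjusted p = 3.94e-05) and 0.54 in deficient MZ (SE 0.07; adjusted p = 1.55e-05). The 2 comparisons share their FO libraries.

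Cd27, the receptor for CD70 and a marker of memory B cells in humans, was rare (chromosome 6, 125232622 to 125237010, minus strand). Control MZ replicates 3 to 6 had 3.58, 3.37, 3.81 and 3.12 CPM, deficient replicates 1, 2, 7 and 8 had 3.12, 3.36, 4.06 and 5.07, and FO replicates 3, 4, 7 and 8 had 1.07, 1.9, 1.04 and 1.28. Every MZ library exceeded every FO library. Its log2 change against FO was 1.41 in control MZ (SE 0.22; adjusted p = 4.18e-05) and 1.6 in deficient MZ (SE 0.24; adjusted p = 3.11e-05), and 0.16 between deficient and control cells (95% interval −0.23 to 0.55; adjusted p = 0.682). Of the 100-base windows of its exons, 1.19% also occur in Mir8113.

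Fas is the death receptor for FAS ligand (chromosome 19, 34290666 to 34327772, plus strand). Its levels were 11.9, 10.5, 8.46 and 8.97 CPM in control MZ replicates 3 to 6, 10.4, 7.5, 8.29 and 7.59 in deficient replicates 1, 2, 7 and 8, and 5.68, 7.63, 4.71 and 5.8 in FO replicates 3, 4, 7 and 8. Control MZ and FO libraries did not overlap (log2 change 0.76, SE 0.16; adjusted p = 0.000717). Deficient MZ and FO libraries did, at 7.5 to 7.63 CPM (0.55, SE 0.16; adjusted p = 0.00675; exact permutation p of the mean levels 0.0857). Deficient cells were not shown to differ from control cells (−0.25, 95% interval −0.56 to 0.07; adjusted p = 0.389). Fas is also used as a germinal centre marker, but is not in the germinal centre list. Of the 6 genes of that list tested between control MZ and FO cells, 5 were called lower and 0 higher. Of all tested genes, 38.7% were called lower and 42.6% higher. Mki67 was not called (log2 change −0.33, adjusted p = 0.451). The part of germinal centre cells in the level of Fas was not tested.

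Of the TNF receptors, Tnfrsf1b encodes TNFR2, found mainly on immune cells, and Tnfrsf1a encodes the death domain receptor TNFR1. Tnfrsf1b (chromosome 4, 145213463 to 145246870, minus strand) stood at 65.2, 76.5, 51.5 and 64 CPM in control MZ replicates 3 to 6, 69.8, 57.2, 55.8 and 60.8 in deficient replicates 1, 2, 7 and 8, and 35.3, 48.8, 39.4 and 42.6 in FO replicates 3, 4, 7 and 8. It was higher in MZ cells without overlap, by a log2 change of 0.66 in control (SE 0.13; adjusted p = 0.00101) and 0.59 in deficient cells (SE 0.1; adjusted p = 1e-04). The MZ groups differed by −0.09 (95% interval −0.33 to 0.15; adjusted p = 0.709).

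Tnfrsf1a (chromosome 6, 125349362 to 125362484, plus strand) had 10, 3, 0 and 4 counts in control MZ replicates 3 to 6, 8, 10, 11 and 4 in deficient replicates 1, 2, 7 and 8, and 1, 1, 2 and 1 in FO replicates 3, 4, 7 and 8. It did not pass the filter in any comparison. Without the filter, deficient MZ cells exceeded FO cells by a log2 change of 2.45 (SE 0.69; adjusted p = 0.00305), and control MZ cells differed from FO cells by 1.41 (SE 0.95; adjusted p = 0.212).

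Tnfrsf14 encodes HVEM, a receptor for LIGHT and lymphotoxin alpha that also engages the inhibitory receptor BTLA, and it was the receptor with the largest fall against FO cells (chromosome 4, 154921933 to 154928563, minus strand). Its levels were 4.78, 4.06, 3.59 and 5.41 CPM in control MZ replicates 3 to 6, 6.88, 6.56, 4.41 and 5.65 in deficient replicates 1, 2, 7 and 8, and 30.3, 36.3, 31.8 and 29.9 in FO replicates 3, 4, 7 and 8. The MZ and FO libraries were far apart, at a ratio of means of 0.139 in control and 0.183 in deficient cells. The log2 changes were −2.82 (SE 0.13; adjusted p = 2.63e-10) and −2.41 (SE 0.13; adjusted p = 1.58e-09). Between deficient and control cells the log2 difference was 0.38 (95% interval 0 to 0.77; adjusted p = 0.264), with overlapping libraries.

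Btla, the HVEM partner, was lower in MZ cells as well. It stood at 247 to 298 CPM in control MZ, 246 to 306 in deficient MZ and 1080 to 1140 in FO libraries, a log2 change of −1.96 in control (SE 0.07; adjusted p = 1.59e-11) and −1.96 in deficient cells (SE 0.08; adjusted p = 8.34e-11). Lta, which encodes lymphotoxin alpha, was higher in MZ cells at 104 to 111 and 98.7 to 119 CPM against 48 to 63.1 in FO (log2 change 0.99, SE 0.08, adjusted p = 8.7e-08 for control MZ). LIGHT itself (Tnfsf14) had 6, 9 and 3 counts in all in control MZ, deficient MZ and FO cells. No HVEM partner was called between deficient and control cells (0 of 3 tested).

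In all, 8 of 8 receptors tested between control MZ and FO cells were called, 6 higher (42.6% of all tested genes were called higher) and 2 lower (38.7%), and 7 of the 8 had groups that did not overlap (76.5% of all genes). Tnfrsf26 passed the filter here through the MZ libraries alone, so its call adds no support. DESeq2 called 8 of 10 (67.4% of all genes) and 8 of 10 passed in the authors' deposited table (65.7%). Between deficient MZ and FO cells 6 of 7 were called, 5 higher (42.8%) and 1 lower (38.3%), with 5 of 7 apart (76%), and DESeq2 called 8 of 10 (66.1%). The median log2 change of the tested receptors was 0.553 and 0.537, beside 0.0549 and 0.0643 over all genes.

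Tnfrsf26 encodes a little-studied mouse receptor and lies in a cluster with the decoy TRAIL receptors Tnfrsf22 and Tnfrsf23 (chromosome 7, 143607659 to 143628722, minus strand; exons of the opposite strand cover 3.33% of its exon bases). Its levels were alike in the control MZ libraries and far apart in the deficient ones. Control MZ replicates 3, 4, 5 and 6 had 15.9, 20.7, 18.6 and 17.7 CPM (648, 782, 771 and 697 counts). Deficient replicates 1, 2, 7 and 8 had 0, 8.28, 13.8 and 0.0319 CPM (0, 298, 593 and 1 counts), and the FO libraries had no count, which allows up to 0.0229 CPM over the group (3 counts, counting error only).

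All 4 deficient libraries lay below all 4 control libraries. Tnfrsf26 was the only 1 of the 8 tested receptors whose MZ groups did not overlap, near the share of all tested genes (11.6%). It passed the filter on low counts here only through the control libraries, so this adds no support. The control and deficient means were 18.2 ± 2.02 and 5.52 ± 6.74 CPM (SD, n = 4). Their exact permutation p was 0.0286, the smallest possible, and 0.0613 when adjusted over the 30 such tests. The edgeR log2 change was −1.69 (SE 1.16, 95% interval −4.5 to 1.11; adjusted p = 0.49). Without deficient replicate 7 the log2 change was −2.69 (adjusted p = 0.351). The authors' deposited table gives −0.04 (DESeq2, adjusted p = 0.668), and whether its fold changes are shrunk is not stated. Control MZ cells were at least 797-fold higher than FO cells, deficient replicate 2 at least 362-fold and deficient replicate 7 at least 602-fold higher, taking 3 counts over the FO group as the floor. The gene did not pass the filter between deficient MZ and FO cells. With all 12 libraries in 1 fit its adjusted p there was 0.0285, with DESeq2 0.00568, and with no filter 0.157.

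Genes beside Tnfrsf26 were looked at after its values were seen and are given as a description. Tnfrsf22 starts 6.08 kb and Tnfrsf23 37.1 kb from it, and they share 15.8% and 9.31% of their 100-base windows with other genes, each other included, so their counts are uncertain. Tnfrsf22 stood at 18.9 to 26.3 CPM in control MZ libraries, at 11.7, 18.9, 21.8 and 10.8 in deficient replicates 1, 2, 7 and 8, and at 10 to 14.7 in FO libraries. Tnfrsf23 stood at 1.06 to 1.7 CPM in control MZ libraries, at 0.0583, 0.75, 1.21 and 0.0319 in the deficient replicates, and had no count in FO libraries. Mrgpre, an orphan G protein-coupled receptor gene 150 kb away, had 46.2 to 53.4 CPM in control MZ, 8.48, 26.9, 23.3 and 8.1 in the deficient replicates and 9.31 to 10.8 in FO libraries. For each of these 3 genes, as for Tnfrsf26, deficient replicates 1 and 8 were the lowest MZ libraries; the order within each pair of replicates was not the same in all of them.

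None of these 3 genes was called between deficient and control cells; the log2 change was −0.55 for Tnfrsf22 (adjusted p = 0.157), −1.24 for Tnfrsf23 (adjusted p = 0.323) and −1.58 for Mrgpre (adjusted p = 0.102). Mrgpre passed the threshold with DESeq2 (adjusted p = 0.00931), with all 12 libraries in 1 fit (0.0304) and without robust estimation (0.0107), and Tnfrsf22 did so without deficient replicate 7 (−0.75, adjusted p = 0.0433). In the 1000 kb on each side of Tnfrsf26, 20 genes were tested and 4 were called, all higher in deficient cells (20%, beside 3.76% of all genes). These were Cd81, a tetraspanin of the B cell coreceptor (log2 change 0.92, SE 0.11; adjusted p = 0.000245), the cation channel gene Trpm5 (2.76, SE 0.28; adjusted p = 7.46e-05), the lipid transfer gene Osbpl5 (0.54, SE 0.09; adjusted p = 0.00318) and the transcript R74862 (0.59, SE 0.14; adjusted p = 0.0305). The call of R74862 was lost without any 1 library but deficient replicate 1 (adjusted p 0.0573 to 0.0951). R74862 and Trpm5 overlap genes of the other strand, so reads of the partners cannot be told apart. Cd81, Trpm5 and R74862 lie at −540, −513 and −554 kb from Tnfrsf26, and Osbpl5 at 60 kb on the other side. Cars, at −7.57 kb on the side of Cd81, differed by −0.08 (adjusted p = 0.597).

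**Figure D4:**
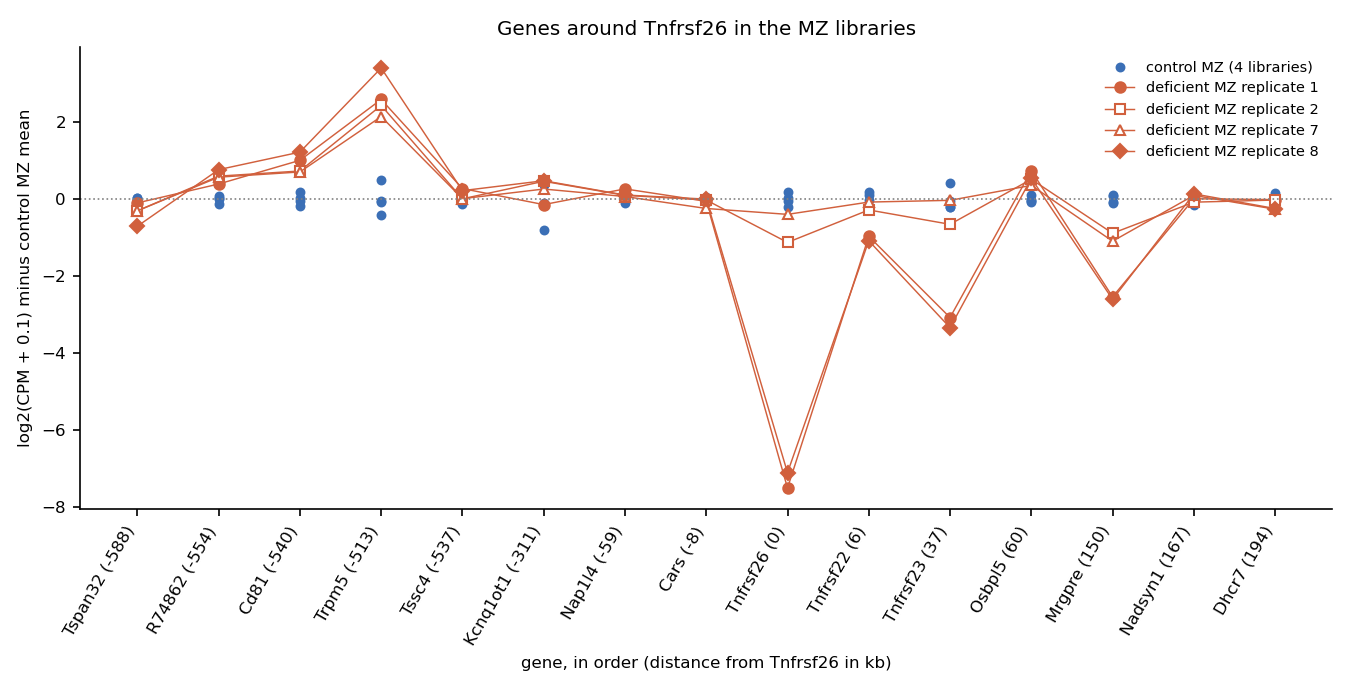
Levels of the 15 genes within 600 kb of Tnfrsf26 that average at least 1 CPM in control MZ cells, as log2(CPM + 0.1) minus the control MZ mean (vertical axis), in gene order with the distance from Tnfrsf26 in kb. Blue points are the 4 control MZ libraries and the lines are the deficient libraries; replicates 1 and 8 fall far below the others at Tnfrsf26, Tnfrsf23 and Mrgpre.

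The remaining genes of the family were described from a list of 18 further receptors, of which 10 were tested in each comparison but deficient MZ against FO (9). Between deficient and control cells 1 was called higher and 0 lower (2.3% and 1.46% of all tested genes). This was Ngfr, the low-affinity neurotrophin receptor, with 1, 3, 0 and 2 counts in control replicates 3 to 6 and 13, 19, 13 and 14 in deficient replicates 1, 2, 7 and 8. It passed the filter on low counts only through the deficient libraries, so its call supports no change of the list and it is given by its counts. FO libraries held 11 to 12.8 CPM, far above the 0.302 to 0.528 CPM of deficient MZ libraries. Between control MZ and FO cells 4 were called higher and 3 lower (42.6% and 38.7% of all tested genes). Those higher include Tnfrsf23, which had no count in FO libraries and passed the filter through the MZ libraries alone. Tnfrsf21, the death receptor DR6, was higher at 41.6 to 47.3 against 1.14 to 2.79 CPM (log2 change 4.53, SE 0.18; adjusted p = 4.06e-10). Relt was higher by 0.88 (SE 0.09; adjusted p = 8.73e-07), and Tnfrsf4, which encodes the costimulatory receptor OX40, was lower by a log2 change of −1.74 (SE 0.15; adjusted p = 1.55e-07). Ngfr, which passed the filter through the FO libraries alone, had 6 counts in all in control MZ and 1519 in FO cells.

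Of 18 ligand genes, 8 were tested between deficient and control cells, and 0 were called higher and 1 lower (2.3% and 1.46% of all tested genes). Tnfsf10, which encodes the death ligand TRAIL, fell from 10.8, 10.3, 10.9 and 7.47 CPM in control replicates 3 to 6 to 7.17, 5.7, 6.78 and 5.07 in deficient replicates 1, 2, 7 and 8. The groups did not overlap, and the log2 change was −0.68 (SE 0.16; adjusted p = 0.0249; −0.51 and 0.00108 in the authors' deposited table). Its adjusted p was 0.062 to 0.0832 without control replicate 3, 4 or 5 or deficient replicate 2 or 8. FO libraries held 13.8 to 15.6 CPM.

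Between control MZ and FO cells 5 of 8 tested ligand genes were called higher and 2 lower (42.6% and 38.7% of all tested genes). Ltb, the membrane anchor of lymphotoxin, stood at 801 to 958 against 577 to 601 CPM (log2 change 0.59, SE 0.06; adjusted p = 6.4e-07). Tnfsf11, which encodes RANK ligand, had 178 against 3 counts in all, and Tnfsf8 had 80 against 9. Both are among those called higher and passed the filter through the MZ libraries alone, so their calls add no support. Tnf was lower at 17.6 to 20.9 against 31 to 43.7 CPM (log2 change −0.85, SE 0.11; adjusted p = 8.08e-06). In contrast to Lta and Tnf, 5 other ligands of the receptors had few counts in these B cells. BAFF (Tnfsf13b) had 10, 15 and 8 counts in all in control MZ, deficient MZ and FO cells, APRIL (Tnfsf13) 0, 1 and 0, Cd40lg 0, 1 and 21, Fasl 26, 50 and 2, and Cd70 0, 1 and 1. None of these 5 passed the filter in any comparison.

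Downstream of the receptors, 23 adaptor and ubiquitin regulator genes were all tested, and 1 was called higher and 1 lower in deficient cells. Of all tested genes, 2.3% were called higher and 1.46% lower. Tnfaip3, which encodes the NF-kappaB inhibitor A20, stood at 66.1 to 87.2 CPM in control and 50 to 61.6 in deficient cells (log2 change −0.43, SE 0.1; adjusted p = 0.0218). Tnip1, which encodes an A20 partner, stood at 73.2 to 88.1 CPM in control and 92.6 to 118 in deficient cells (0.38, SE 0.09; adjusted p = 0.0309). Leaving out 1 library ended the call of Tnfaip3 in 3 cases (control replicate 3 or 4, deficient replicate 8; adjusted p up to 0.0738) and of Tnip1 in 4 (control replicate 3, 4 or 6, deficient replicate 8; up to 0.104). Of 9 genes of the noncanonical pathway 0 were called; 0 of 8 shedding protease genes were called.

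Among 23 target genes of BAFF, CD40 and TNF signalling, 0 were called higher and 2 lower in deficient cells, Tnfaip3 and Nfkbie. The shares over all tested genes were 2.3% and 1.46%. Nfkbie, which encodes the inhibitor IkappaB epsilon, stood at 248 to 274 CPM in control and 210 to 229 in deficient cells (log2 change −0.25, SE 0.06; adjusted p = 0.0365). Its call was lost without any 1 library but deficient replicate 1 (adjusted p 0.0574 to 0.121). The medians of these lists were −0.01 for adaptors, −0.09 for the noncanonical pathway and −0.04 for targets, beside −0.0037 over all genes.

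Against FO cells most genes of these lists were called in one direction or the other, as were 81.3% of all tested genes. In control MZ cells 11 adaptor genes were higher and 10 lower of 23. Traf1, an adaptor that TNF receptors induce, was higher (155 to 194 against 50.7 to 62.5 CPM; log2 change 1.68, SE 0.09; adjusted p = 4.81e-09), as was Traf4 (1.54, SE 0.09; adjusted p = 4.72e-09). Cflar, the caspase-8 inhibitor cFLIP, was lower (43.9 to 51.2 against 190 to 203 CPM; −2.03, SE 0.07; adjusted p = 1.17e-11). In the noncanonical pathway 2 genes were higher and 5 lower of 9. Traf3, which holds that pathway off in resting B cells, was lower at 80.6 to 92.5 against 159 to 185 CPM (−0.99, SE 0.06; adjusted p = 5.54e-09). Otud7b, a deubiquitinase that spares TRAF3, was lower by a log2 change of −1.54 (SE 0.06; adjusted p = 3.18e-11), and Birc3 by −0.61 (SE 0.06; adjusted p = 2.69e-07). Relb, the partner of the pathway's p52 subunit, was higher at 114 to 116 against 63.4 to 65.2 CPM (0.87, SE 0.04; adjusted p = 6.71e-10).

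Of 22 target genes tested between control MZ and FO cells, 13 were higher and 6 lower. Cr2 and Fcer2a are among them and encode the proteins used to sort the cells. Nfkbie was higher by a log2 change of 1.19 (SE 0.05; adjusted p = 1.08e-10), and Icosl, which encodes the ligand of ICOS, was lower at 257 to 313 against 724 to 792 CPM (−1.37, SE 0.07; adjusted p = 9.13e-10). Of the 8 tested genes for receptor shedding, such as the gamma-secretase that cuts BCMA, 5 were higher and 2 lower. Ncstn was higher by 0.46 (SE 0.04; adjusted p = 5.59e-07), while the subunit isoforms Aph1b and Aph1a changed by 1.49 (SE 0.2; adjusted p = 9.59e-06) and −0.62 on the log2 scale (SE 0.07; adjusted p = 1.95e-06). In bulk libraries, fewer expressing cells and less RNA per cell cannot be told apart for any of these genes.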

How the data were processed

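Sorted B cells from mouse spleen gave 12 libraries, grouped by the genotype and cell type labels. The design text credits a Clontech SMARTer kit with paired reads of 100 bp to the MZ libraries, and a stranded TruSeq kit with single reads of 100 bp to the FO libraries; the labels' extraction protocol names only the SMARTer kit. Per the submitters' processing notes, the tools were TopHat2 2.0.12, Trim Galore, DESeq2 1.10.1 and HTSeq, on GRCm38. The strand setting and the annotation used for counting are not stated in them. The authors deposited raw counts per Ensembl gene, 1 column for each library. The log2 fold changes that the authors deposited, and the adjusted p-values the authors deposited beside them, are from 2 DESeq2 tables and are cited by name; whether the fold changes are shrunk is not stated.

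Of 43629 gene IDs, 42548 matched GENCODE M21 (GRCm38), which gave symbols, exons and UTRs. Every comparison had its own fit of 8 libraries with edgeR 4.0.16 in R 4.3.3 (robust quasi-likelihood test, TMM scaling, filterByExpr), and p-values were adjusted by Benjamini-Hochberg over all genes tested, with a threshold of 0.05. There were 0 identical pairs of libraries, and the chi-square per gene between replicates was 5.78 to 48.6, above sampling noise. Exact two-sided permutation tests of mean levels were run for 30 pairs of receptor and comparison; adjusted over these 30, the smallest p was 0.0613. Levels use TMM factors over 12 libraries, so they differ slightly from fitted fold changes. Intervals are 95%, and floors of 3 counts cover counting error only.

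The members and lists were chosen with earlier results of these data known. Named genes are the 10 receptors, Zfp36l1 and up to 4 called genes of each list by smallest p, plus ligands of the receptors; 1 gene that qualified is not reported here. The genes around Tnfrsf26 are exceptions picked once their values were known. So are Cd93, Lck, Lat, Klrd1, Klrb1c, Mki67, Tnfsf8, the named dendritic cell markers and the named plasma cell markers. Alternatives were DESeq2 1.42.0, RLE scaling, no filter, 1 fit of all 12 libraries, leaving out each library, a replicate block and, chosen after seeing the data, no robust estimation. The code was tested on simulated data.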

Additional observations from a re-analysis of the deposited data

Results flagged for a closer look

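A library was marked when it stood far from the other 3 of its group, by Dixon's gap test at the 95% level. Chance marks about 1 in 20 such groups. Of 138 groups checked, from most of the named genes, 9 were marked, none of them for a receptor of the 10. Btla was lowest in control MZ replicate 6 (247 CPM, group median 293). Ltb was highest in deficient MZ replicate 1 (1000 CPM, group median 824). Relt was highest in control MZ replicate 6 (58.2 CPM, group median 50.2). Relb was highest in deficient MZ replicate 1 (121 CPM, group median 103). Aph1a was lowest in deficient MZ replicate 7 (17.1 CPM, group median 20.6) and highest in FO replicate 4 (36.7 CPM, group median 33.6). Aph1b was highest in FO replicate 3 (3 CPM, group median 1.93). Adgre1 was highest in deficient MZ replicate 7 (5.48 CPM, group median 4.18). Hbb-bt was highest in FO replicate 4 (2.37 CPM, group median 0.87).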

How the results depend on the processing

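The count of receptors called in each comparison stayed within 1.5 times its value under every alternative run: 0 throughout between deficient and control MZ cells, 8 throughout between control MZ and FO cells, and 6 to 8 between deficient MZ and FO cells. The 8 came with DESeq2, which also called Tnfrsf1a and Tnfrsf26. The number of all genes called between deficient and control cells was 526 as described, 1049 with DESeq2, 790 with all 12 libraries in 1 fit and 257 to 506 with 1 library left out (257 without control replicate 4, 299 without deficient replicate 8, 309 without control replicate 3 and 311 without control replicate 6); the cause was not tested, beyond fewer samples in the leave-outs. Only 2 receptor values turned direction, neither called: Tnfrsf1b between deficient and control cells without control replicate 4 (leave-one-out range −0.19 to 0.011) and Tnfrsf13c between deficient MZ and FO cells without deficient replicate 7 (range −0.117 to 0.031). Control MZ and FO libraries share the replicate numbers 3 and 4, and deficient MZ and FO libraries 7 and 8, with different genotypes under each number, so the numbers pair no animals. With these numbers as a replicate block, 10204 and 11323 genes were called, 8 and 6 receptors among them, on 4 libraries each, and Jchain between control MZ and FO cells lost its call (adjusted p = 0.0713). Same-numbered libraries deviated from their group means with correlations across genes of −0.0412 and −0.0812 (control MZ and FO) and 0.103 and 0.0293 (deficient MZ and FO). For deficient against control MZ cells no paired analysis was possible because they share no replicate number. Depth limits Tnfrsf17 and Tnfrsf1a, and the spread between libraries limits Tnfrsf26.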
